A study of Mus musculus with 216 samples.

Results

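Packed domains are H3K9me3 domains of mouse embryonic stem cells that have another domain close by on both sides. A domain counted as packed when the gap to the domain before it and the gap to the domain after it on the same chromosome were both below 5000 bp. On chromosomes 1 to 7, 9, 10 and 12 to 19 the rule kept 372 of 34389 domains, from a table of 43039 domains in all. The other 34017 domains of those 17 chromosomes were the set for comparison, and 5188 of them had 1 close neighbour while 28829 had no close neighbour.

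The cells were the dTKO line of mouse ES cells, with floxed Suv39h1 and Setdb1 alleles and no Suv39h2 (Suv39h1fl/fl ; Suv39h2-/- ; Setdb1fl/fl). This genotype was common to all samples, at time 0 too. Cells were taken 0, 1, 3, 12, 24 and 48 h after treatment began with auxin (100 µg/ml) and dTAG13 (0.5 µM), 2 compounds that make cells destroy proteins carrying a matching tag. The sources used here do not give which proteins carried tags. The 216 samples were 54 sequencing runs each of H3K9me3 ChIP, HP1b ChIP and the 2 kinds of input, with 9 runs per time from 3 repeats, and 20 µg of chromatin was mixed with 1.5 µg of Drosophila chromatin per immunoprecipitation. The deposited table condenses the H3K9me3 time course into 1 word per domain, its decay class (fast, intermediate, slow or residual), and holds no value per sample, so the depth behind a class is unknown, no spread between cultures can be given, and the labelled cell type could not be checked against markers.

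H3K9me3 is the histone mark of constitutive heterochromatin, the compact chromatin that silences repeats. In mouse ES cells SETDB1 is brought to endogenous retroviruses by KRAB zinc finger proteins and TRIM28, and SUV39H1 and SUV39H2 act on satellite repeats and on LINE-1 and retroviral sequence. HP1 proteins bind the mark through a chromodomain. Once the writing enzymes are gone, the mark is diluted as DNA is copied and can be removed by demethylases, and the 4 class names order domains from quick to least loss.

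Retroelement sequence is shown first, because it recurs in packed domains of different classes. A script took the run of 31 bases found in the most domains of the 17 chromosomes (at least 3 of each base in the run). It lay in 9704 domains and, from background knowledge, belongs to the first open reading frame of mouse LINE-1, the main autonomous retrotransposon of mammals. The windows below are 120 bases of GRCm38 from packed domains, the first pair in each class in chromosome order, with the 31 shared bases in capitals.
chr1:7931094-7931213, plus strand, intermediate: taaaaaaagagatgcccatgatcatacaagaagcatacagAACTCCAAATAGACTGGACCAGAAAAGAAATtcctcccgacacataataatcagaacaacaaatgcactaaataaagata
chr1:65527512-65527631, plus strand, intermediate: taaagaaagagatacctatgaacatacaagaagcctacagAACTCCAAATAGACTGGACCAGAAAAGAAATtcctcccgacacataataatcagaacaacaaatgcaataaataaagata
chr1:85019465-85019584, minus strand, slow: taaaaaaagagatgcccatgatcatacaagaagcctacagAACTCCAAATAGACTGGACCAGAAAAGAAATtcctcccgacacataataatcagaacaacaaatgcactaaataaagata
chr1:85148866-85148985, plus strand, slow: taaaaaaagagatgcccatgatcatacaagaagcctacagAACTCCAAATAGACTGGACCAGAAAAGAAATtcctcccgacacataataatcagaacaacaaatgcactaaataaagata
chr10:106392903-106393022, plus strand, fast: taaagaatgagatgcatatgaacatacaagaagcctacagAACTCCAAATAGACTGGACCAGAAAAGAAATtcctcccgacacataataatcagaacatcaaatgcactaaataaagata
chr12:30993075-30993194, plus strand, fast: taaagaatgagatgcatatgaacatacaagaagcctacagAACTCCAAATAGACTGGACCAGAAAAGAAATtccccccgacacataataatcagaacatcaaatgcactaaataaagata
The slow pair lay inside the gene C130026I21Rik. The 31 bases lay in 0 of 40 residual packed domains and in 1.09% of other residual domains.

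Retroviral sequence was searched by primer binding sites, the 18 bases where a host tRNA anneals to start reverse transcription. Each site is the reverse complement of a tRNA's 3′ end, and 124 distinct sites were built from 403 annotated tRNA genes and searched on both strands, with 2 of them shared between amino acids. Intracisternal A particles use the Phe tRNA and MERV-L elements the Leu tRNA. The windows are 80 bases of GRCm38 from packed domains, 1 for each of 5 kinds of tRNA end, with the site in capitals; the Phe site is one of those shared, with Ser.
Phe/Ser site, chr1:85000175-85000254, minus strand, residual: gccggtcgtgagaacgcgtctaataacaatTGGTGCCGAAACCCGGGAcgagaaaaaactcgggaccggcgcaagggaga
Gly site, chr1:85145051-85145130, minus strand, slow: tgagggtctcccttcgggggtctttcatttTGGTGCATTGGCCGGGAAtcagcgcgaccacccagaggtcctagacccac
Leu site, chr1:171068870-171068949, minus strand, residual: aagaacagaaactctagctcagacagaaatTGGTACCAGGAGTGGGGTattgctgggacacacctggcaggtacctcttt
Lys site, chr5:88167632-88167711, minus strand, intermediate: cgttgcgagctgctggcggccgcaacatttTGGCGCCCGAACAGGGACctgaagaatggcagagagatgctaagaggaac
Gln site, chr3:142687300-142687379, plus strand, intermediate: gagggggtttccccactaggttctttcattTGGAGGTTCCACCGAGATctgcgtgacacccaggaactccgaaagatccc
A match to a site is a description of the sequence and does not show that an element is intact.

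The longest series of packed domains lay on chromosome 1 in C130026I21Rik, in a stretch that reaches Sp110 and Sp140. These 2 are genes of the Sp100 family of nuclear body proteins, which bind chromatin and respond to interferon. Sequence there is repeated between packed domains. The windows below are 120 bases of GRCm38 from 4 residual packed domains, with 31 bases shared by all 4 in capitals, chosen as a run outside annotated exons of coding genes and outside soft-masked repeats.
chr1:85095477-85095596, minus strand: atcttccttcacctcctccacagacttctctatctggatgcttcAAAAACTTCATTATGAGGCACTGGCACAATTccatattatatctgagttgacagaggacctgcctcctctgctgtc
chr1:85162675-85162794, plus strand: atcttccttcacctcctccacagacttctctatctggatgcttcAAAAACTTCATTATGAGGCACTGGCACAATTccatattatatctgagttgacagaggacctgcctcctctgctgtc
chr1:85255697-85255816, minus strand: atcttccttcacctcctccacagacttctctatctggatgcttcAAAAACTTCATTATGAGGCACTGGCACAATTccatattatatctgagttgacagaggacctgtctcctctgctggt
chr1:85613524-85613643, plus strand: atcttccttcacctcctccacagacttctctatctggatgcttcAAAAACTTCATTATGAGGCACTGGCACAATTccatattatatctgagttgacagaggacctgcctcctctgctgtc
The window at 85255697 differed from the one listed first at 3 of 120 bases (97.5% identity), and the remaining pair differed from it at 0. The first 3 windows lay inside C130026I21Rik and the last inside Sp140.

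Packed domains covered 2.05 Mb, against 135 Mb for the other domains. They were wider than the other domains, with a median of 3.75 kb (quartiles 2.4 and 6.6 kb) against 3 kb (quartiles 1.8 and 4.5 kb). Over chromosomes, the median log2 width in bp ranged over 11.47, 11.81 and 13.41 (lowest, median, highest) for packed domains and over 11.40, 11.55 and 11.69 for other domains. The difference of chromosome medians was 0.49 ± 0.52 on the log2 scale (packed minus other, SD over 17 chromosomes), with packed domains wider on 13 chromosomes and narrower on 1. The sign-flip permutation test, two-sided and taken across chromosomes, gave p = 0.00031. Such p-values measure the spread between chromosomes and not between cultures. Against the domains with 1 close neighbour, whose median was 3.3 kb, the difference was 0.35 (adjusted p = 0.00671, sign-flip permutation test). The longest packed domain spanned 28.8 kb on chromosome 18 (chr18:36869401-36898200, slow), just before the alpha protocadherin genes. The next 4 in length were chr1:166575301-166603800 (28.5 kb, slow), chr19:8018101-8043300 (25.2 kb, intermediate), chr6:81846001-81871200 (25.2 kb, slow) and chr1:84987301-85008000 (20.7 kb, residual), and the first 3 of these 4 held the LINE-1 run.

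With their close neighbours on either side, the packed domains formed 296 runs of 964 domains. Most were short, with 243 runs of 3 domains (1 packed domain between 2 end domains), 43 of 4 and 4 of 5, and 6 runs had 6 to 9 domains. A run spanned a median of 21.9 kb, from 10.5 to 107.7 kb, and 67.1% of a run's length was marked at the median. The 668 gaps beside packed domains measured 1.2 to 4.8 kb with a median of 3.3 kb, while the median gap on the 17 chromosomes was 30.9 kb. At the limit of the rule, 66 packed domains had a larger gap of 4.8 kb and 57 domains just outside had one of 5.1 kb. Packed domains made up between 0.479% of the domains of chromosome 2 (12 domains) and 1.89% of those of chromosome 1 (58 domains). Because members of 1 run share a place, they are not independent, and tests were made over chromosomes.

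By decay class, 11 packed domains (2.96%) were fast, 258 (69.4%) intermediate, 63 (16.9%) slow and 40 (10.8%) residual. The shares in all domains of the 17 chromosomes were 2.93% fast, 76.7% intermediate, 18.1% slow and 2.25% residual. The fast and slow shares of packed domains were near these backgrounds, the intermediate share was below its background and the residual share above it, and no class passed the test given below. Residual domains made up 10.8% of packed domains, 3.16% of domains with 1 close neighbour and 1.98% of domains with no close neighbour.

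The residual excess was not spread evenly. Over the 17 chromosomes the residual share of packed domains ranged over 0, 2.94 and 39.7% (lowest, median, highest), against 1.30, 2.19 and 3.03% for other domains. Packed domains were above other domains on 9 chromosomes and below them on 8, where no packed domain was residual. The mean difference was 4.89 ± 10.9 percentage points (SD, 17 chromosomes) and did not pass the threshold of 0.05 (p = 0.068, adjusted p = 0.272 over 4 classes, sign-flip permutation test). Of the 40 residual packed domains, 23 lay on chromosome 1 and 17 of these in the Sp100 stretch, between 84962401 and 85614900. Without that stretch, 23 of 351 packed domains (6.55%) were residual, a mean difference of 3.53 percentage points (adjusted p = 0.272, sign-flip permutation test). Differences for the other classes were -0.0256 ± 4.06 points for fast (adjusted p = 0.979), -4.12 ± 11.5 for intermediate (adjusted p = 0.324) and -0.741 ± 9.87 for slow (adjusted p = 0.979, sign-flip permutation test).

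**Figure D1:**
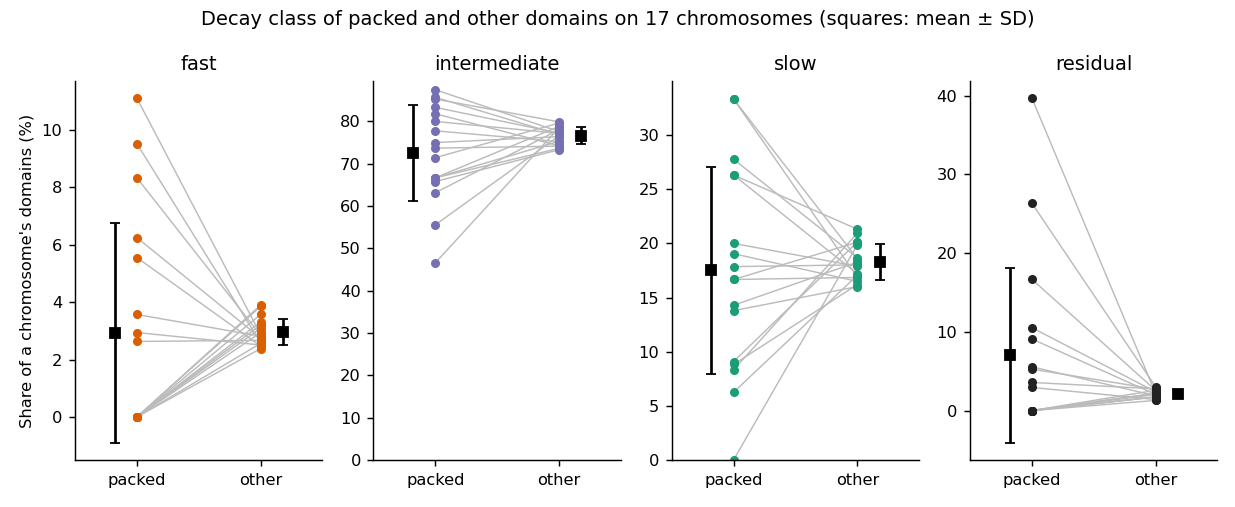
Share of each chromosome's domains (percent, vertical axis) in the 4 decay classes for packed domains and for other domains. Each point is 1 of 17 chromosomes, lines join a chromosome, and squares are the mean with the SD; packed domains scatter from 0 to 39.7% residual, while other domains lie between 1.30 and 3.03%.

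Width and class moved together. The slow share of packed domains was above that of the others at widths up to 3 kb and below it among wider domains. Among other domains the slow share increased with width: it was 7.28% for widths up to 1.5 kb, then 10.4% (1.8 to 3 kb), 18.3% (3.3 to 6 kb), 45.5% (6.3 to 12 kb) and 57.0% (over 12 kb). In packed domains the same 5 widths had 12.1, 12.3, 16.7, 20.3 and 30.6% slow, from 33, 122, 102, 79 and 36 domains. So 27 of 115 packed domains over 6 kb were slow (23.5%), against 2613 of 5452 other domains of that width (47.9%). In an alternative setting that averaged the difference over the 5 widths, the slow share differed by -6.58 percentage points (packed minus other). Its adjusted p was 0.0274 over 4 classes (sign-flip permutation test over 17 chromosomes). In the main test, at all widths together, the slow share was not called, as given above. The split at 6 kb was chosen after the values were seen and not tested alone. Over 12 kb the widths differ too, since packed domains reached 28.8 kb and other domains 121.5 kb. Over 6 kb, 64 packed domains (55.7%) were intermediate, 21 (18.3%) residual and 3 (2.61%) fast, against 49.4, 1.60 and 1.06% of other domains. Outside the Sp100 stretch, 25 of 102 wide packed domains (24.5%) were slow and 10 (9.80%) residual.

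**Figure D2:**
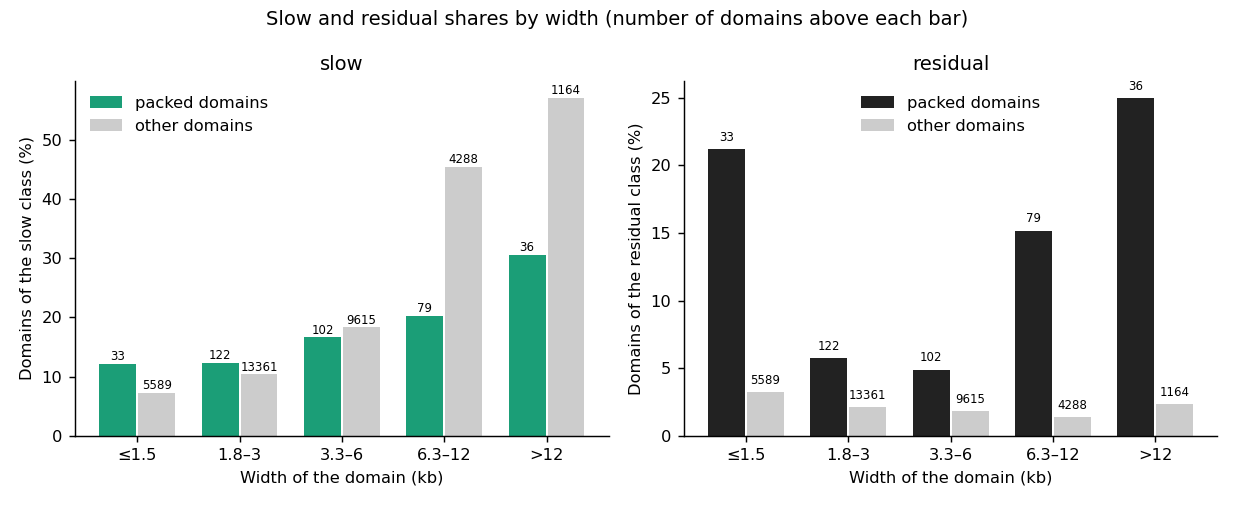
Share of domains (percent, vertical axis) in the slow class and in the residual class by domain width in kb (horizontal axis), for packed and other domains, with the number of domains above each bar. The slow share climbs with width in both sets, to 30.6% of packed and 57.0% of other domains above 12 kb, and the residual share of packed domains is highest there, at 25.0%.

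Agreement of a packed domain with both of its neighbours was not called different from that of other domains. Both neighbours had the domain's own class for 178 of 372 packed domains (47.8%), against 48.1% of all domains of these chromosomes. The share over chromosomes was 27.8, 44.7 and 72.7% (lowest, median, highest) for packed domains and 42.6, 48.4 and 52.8% for other domains. The difference was -0.196 ± 12.1 percentage points (adjusted p = 1, sign-flip permutation test over 17 chromosomes). For 135 packed domains (36.3%) 1 neighbour matched, against 32.3% of other domains, and for 59 (15.9%) neither did, against 19.7%. As arithmetic without a test, drawing 3 classes independently from the class shares gives 33.2% for packed domains and 45.9% for other domains, beside the observed 47.8 and 48.1%. Without the Sp100 stretch the packed domains had 47.9% observed and 38.9% from the same arithmetic.

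Agreement differed between classes. An intermediate packed domain had intermediate neighbours in 408 of 516 cases (79.1%), against 78.3% for intermediate domains with 1 close neighbour. For residual packed domains, 46 of 80 neighbours were residual (57.5%), against 35.7% of the neighbours of residual domains with 1 close neighbour and 13.9% where no neighbour was close. Both neighbours were residual for 14 of the 40, 1 neighbour for 18 and neither for 8. Outside the Sp100 stretch 20 of 46 neighbours of residual packed domains were residual (43.5%). Slow packed domains had slow neighbours in 36 of 126 cases (28.6%), against 22.0% with 1 close neighbour and 20.5% with no close neighbour, while 69 of their neighbours were intermediate and 17 residual. Of the 22 neighbours of the 11 fast packed domains, 18 were intermediate, 3 slow and 1 (4.55%) fast, and for other fast domains 3.56% of neighbours were fast. Chromosomes with at least 5 domains of a class were too few for slow (6 chromosomes) and residual (2 chromosomes). The smallest possible p of the sign-flip permutation test, before adjustment over 4 comparisons, was 0.0312 for slow and 0.5 for residual. Beside the other p-values neither could pass after adjustment, so the test could not decide for these classes. No difference in agreement passed the threshold in any class tested (adjusted p = 1 each, sign-flip permutation test).

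The nearer 2 consecutive domains were, the more often a residual domain was followed by a residual one. Over all domains of the 17 chromosomes, 59.5% of the neighbours of residual domains were residual at gaps under 3 kb, 40.7% at 3 to under 5 kb, 35.3% at 5 to under 10 kb, 21.7% at 10 to under 30 kb, 9.46% at 30 to under 100 kb and 6.29% at 100 kb or more. Without the Sp100 stretch the first 2 values were 51.1 and 37.0%. The slow class varied less, with 30.2% under 3 kb and 18.8% at 100 kb or more, and the intermediate class stayed between 77.0 and 81.7%. These shares describe pairs that share domains, and carry no test.

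**Figure D3:**
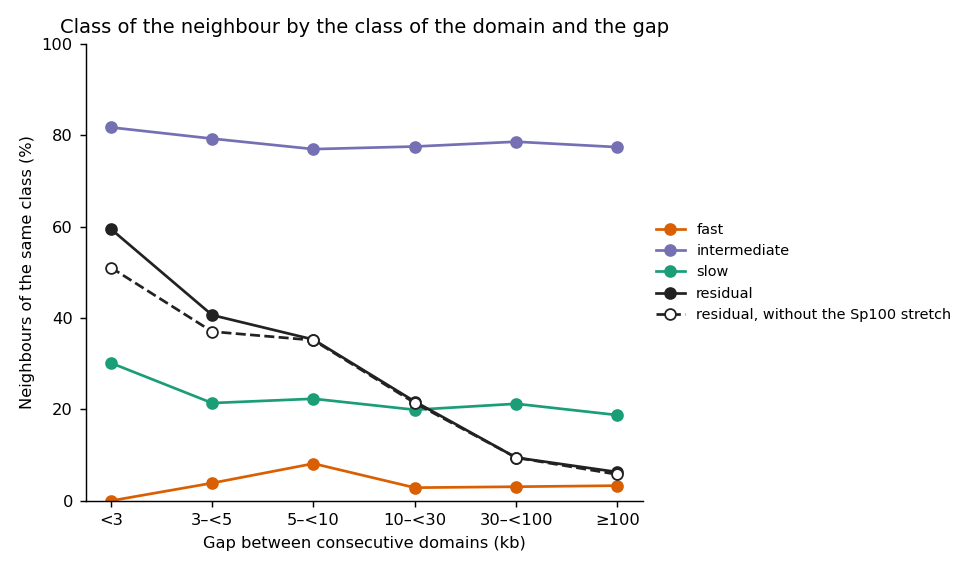
Share of neighbours that have the domain's own class (percent, vertical axis) by the gap between consecutive domains in kb (horizontal axis), 1 line per class, with a dashed line for residual domains without the Sp100 stretch. The residual line goes down from 59.5% under 3 kb to 6.29% at 100 kb or more, while the intermediate line stays between 77.0 and 81.7%.

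Of the 296 runs, 134 (45.3%) had a single class: 128 were intermediate throughout, 5 residual and 1 slow, and none was fast. Of the 162 mixed runs, 102 held only intermediate and slow domains. A single packed domain could thus differ from both ends of its run, and 21 slow packed domains sat between 2 intermediate ones.

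The 12 runs with the most domains were led by the Sp100 stretch; the last 2 of the 12 had 4 domains and were the longest of the 43 runs of that size. The longest run, chr1:85065001-85172700, had 9 domains over 107.7 kb, of which 8 were residual and 1 slow, and 74.1% of it was marked. It overlapped the coding genes A530032D15Rik, C130026I21Rik and Gm10553. Its neighbour chr1:84955501-85037400 had 8 domains, 5 slow and 3 residual, in C130026I21Rik. Another run of the stretch, chr1:85548901-85622400, had 6 domains, all residual over G530012D18Rik, Sp110 and Sp140. Also in the stretch and among the 12, chr1:85447201-85517700 had 3 residual domains and 1 intermediate domain and no coding gene. Runs of 3 domains at chr1:85204201-85239300 and chr1:85244701-85286400 lay in the stretch too, outside the 12. Of the 42 domains in the stretch 21 were packed, 17 of them residual and 4 slow, and of the other 21 domains 10 were residual, 6 slow and 5 intermediate.

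Packed domains of the Sp100 stretch were of repeated but mostly unmasked sequence. In its residual packed domains 0 to 23.8% of the sampled 31-mers occurred once in the genome. Over all 21 packed domains of the stretch a median of 32.8% of bases were soft-masked, the mark for known repeats. A packed domain of the stretch shared between 0.458 and 83.1% of its 31-mers with other packed domains there (median 57.5%), as in the windows printed above. The sources used here do not give how reads from repeated sequence were assigned, and the part of this in the residual class was not tested. Outside the stretch, 10 of 23 residual packed domains had over 80% unique 31-mers and 7 had under 20%.

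A further residual run on chromosome 1 had packed domains of mostly unique sequence. The run chr1:88226401-88310700 had 6 domains, 5 residual and 1 slow, and its span included Hjurp, Mroh2a and Trpm8. Of these genes, only Hjurp and Trpm8 overlapped its packed domains. Hjurp encodes the chaperone that loads the centromeric histone CENP-A, and Trpm8 a cold-sensing ion channel. Its 4 packed domains had 88.9 to 100% unique 31-mers and 6.77 to 24.9% soft-masked bases. They measured 3, 6.3, 0.6 and 6.3 kb in order, and the second was the slow one. Other residual packed domains of mostly unique sequence lay at Lbhd2 (14.1 kb, 94.3% unique) and Tnfaip2 (6.3 kb, 100% unique) on chromosome 12 and in Pappa (10.5 kb, 99.0% unique) on chromosome 4; Tnfaip2 is a gene induced by tumour necrosis factor and Pappa encodes a protease of insulin-like growth factor binding proteins. The residual packed domain at Fcgr3, an Fc receptor gene, was 13.8 kb with 10.9% unique 31-mers and held the Leu site printed above.

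The gamma protocadherins had a run of mixed classes, chr18:37715401-37767900, with 8 domains over 52.5 kb. Clustered protocadherins are cell adhesion molecules whose variable first exons stand in tandem, each with its own promoter, and share constant exons. The run read residual, slow, intermediate, residual, residual, then intermediate 3 times. Its 6 packed domains had 5.5 to 18.1% soft-masked bases and 81.5 to 96.7% unique 31-mers, and CpG ratios (observed over expected) of 0.352 to 0.647, against a median of 0.213 over all packed domains. The genes overlap, so the same 6 packed domains counted for Pcdhga1, Pcdhga2, Pcdhga3, Pcdhgb1 and others, with 31.2 kb of each inside them.

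The other large runs were mostly intermediate. On chromosome 16, chr16:21015601-21058800 had 5 intermediate domains and 1 slow one, with no coding gene. On chromosome 1, chr1:182169601-182221200 had 4 intermediate domains and 1 slow one, and on chromosome 13, chr13:65644201-65694000 had 3 intermediate, 1 slow and 1 residual, both without a coding gene. The run chr7:5963401-6011100 had 5 intermediate domains, as did chr3:4160101-4192200, where no gene is annotated. The span of the chromosome 7 run included Vmn1r65, a vomeronasal pheromone receptor gene, but no packed domain overlapped that gene. The last, chr18:6338401-6403500, had 2 slow domains followed by 2 intermediate ones. In all, 167 of 296 runs (56.4%) overlapped no annotated gene and 55 overlapped a coding gene. Genes of a run were counted over its whole span, gaps and end domains included.

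**Figure D4:**
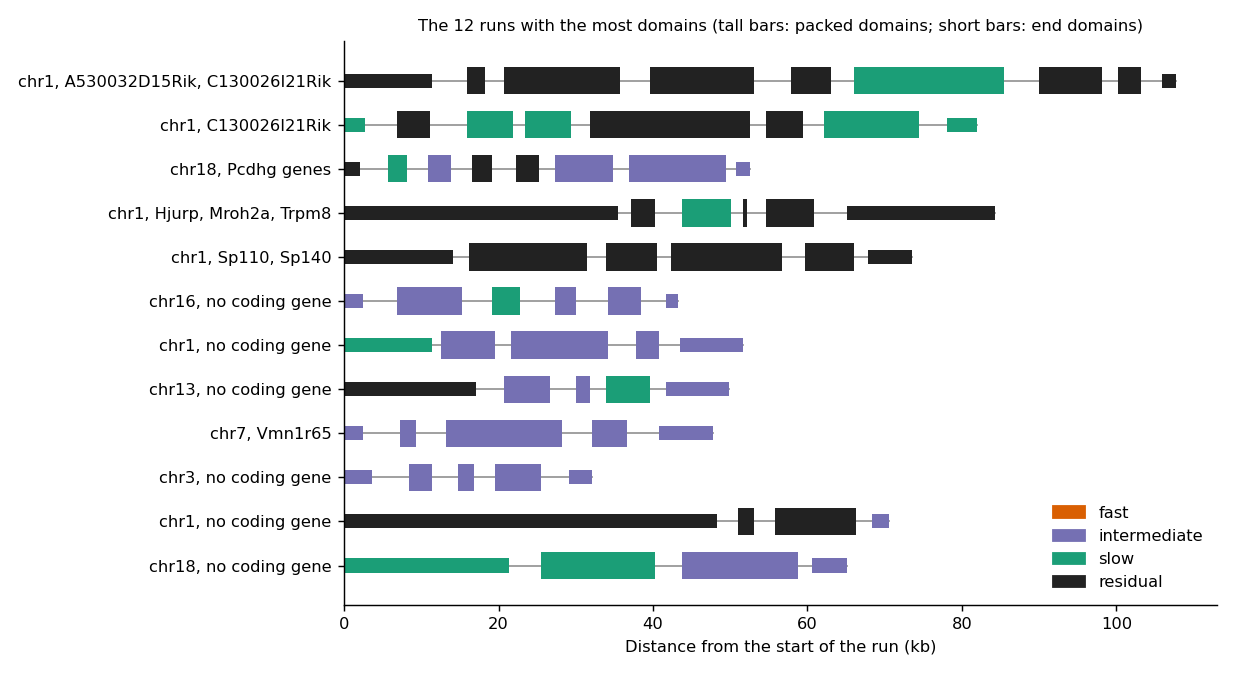
The 12 runs with the most domains, drawn to scale by distance from the start of the run in kb (horizontal axis), with domains coloured by decay class; tall bars are packed domains and short bars the domains at the ends of a run. Residual domains fill the runs at Sp110 and Sp140 and at Hjurp, and 5 of the 12 runs hold no residual domain.

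Gene families were counted by symbol in 30 lists, of which 28 had genes on these chromosomes and 7 had a packed domain. Over all domains 1.08% were packed. The Sp100 family had 4 packed of 6 domains (66.7%), all residual, with 80.8% of Sp110 and 25.8% of Sp140 inside packed domains. Clustered protocadherins had 7 packed of 28 domains (25.0%): 3 intermediate, 2 slow and 2 residual. Of these 7, 6 lay in the run chr18:37715401-37767900, and all 4 of the Sp100 family lay in the run chr1:85548901-85622400. Neither share is thus a rate over separate places. Zinc finger genes, which include the KRAB repressors of retroelements, had 2 of 223 (0.897%), a residual one at Zfp978 and an intermediate one in Zfp697. Vomeronasal type 2 receptors had 2 of 139, at Vmn2r7 and Vmn2r-ps54, and type 1 receptors 1 of 43, covering the pseudogene Vmn1r-ps120. One packed domain lay in Cyp2c66, a cytochrome P450 gene (slow), and 1 in Ifi213, an interferon-inducible gene (intermediate). Olfactory receptors had 0 packed of 88 domains, and the other 20 lists with genes also had 0.

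Of 14885 coding genes of at least 5 kb, 66 (0.443%) overlapped a packed domain and 26 overlapped at least 2. No share of coding genes with any H3K9me3 domain is given beside it. These genes are not separate places: 26 genes in the list of clustered protocadherins had a packed domain, and together they had 7 such domains. C130026I21Rik had the most, with 12 packed domains covering 43.0% of its 277.9 kb, 10 of them residual and 2 slow. The 9 that followed were all in the protocadherin cluster, from Gm42416, Gm37013 and Gm37388 with 7 packed domains to Pcdhga1 to Pcdhga4, Pcdhgb1 and Pcdhgb2 with 6.

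Packed domains lay in genes less often than other domains did. A gene body overlapped 101 of 372 packed domains (27.2%) and 35.4% of other domains, with chromosome shares of 5.56, 23.8 and 51.7% (lowest, median, highest) against 29.4, 35.6 and 41.4%. The mean difference was -10.4 ± 15.1 percentage points, with packed domains lower on 12 of 17 chromosomes (adjusted p = 0.0409 over 3 annotations, sign-flip permutation test). This call was lost in 12 of 17 fits that left out 1 chromosome (adjusted p between 0.0119 and 0.0814 over all 17) and against domains with 1 close neighbour (-4.81 points, adjusted p = 0.503, sign-flip permutation test). Exons of coding genes overlapped 30 packed domains (8.06%, against 6.58% of other domains) and promoters, within 1 kb of a coding transcript's start, overlapped 21 (5.65%, against 2.79%), and neither difference passed (adjusted p = 0.881 each, sign-flip permutation test). Of the 40 residual packed domains 32 overlapped a gene body, 16 a coding exon and 13 (32.5%) a promoter. Other residual domains were also often in genes, with 66.8% overlapping a gene body, 29.4% a coding exon and 17.6% a promoter, and no test of this difference was made. Of the 258 intermediate packed domains 53 (20.5%) overlapped a gene body, 10 (3.88%) a coding exon and 5 (1.94%) a promoter.

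The sequence of packed domains was set beside that of the gaps between them, whose length the rule had used but whose sequence it had not. GC content had a median of 42.9% in packed domains and 39.7% in gaps. Chromosome medians were 41.0, 42.8 and 45.4% (lowest, median, highest) in packed domains and 38.3, 39.3 and 43.8% in gaps, with packed domains higher on 17 of 17 chromosomes by 3.1 ± 1.05 percentage points (adjusted p = 4e-05, sign-flip permutation test). The CpG ratio was 0.213 in packed domains and 0.146 in gaps, again higher on 17 of 17 chromosomes, by 0.0725 ± 0.0377 (adjusted p = 4e-05, sign-flip permutation test). Soft-masked bases were 64.0% of packed domains and 46.0% of gaps, higher on 14 of 17 chromosomes by 15.3 ± 16.5 points (adjusted p = 0.00272, sign-flip permutation test). Unique 31-mers were 42.9% in packed domains and 58.7% in gaps, a difference of -14.9 ± 14.5 points that was lower on 14 chromosomes (adjusted p = 0.00176, sign-flip permutation test). With chromosome means in place of medians the last 2 differences were smaller, at 6.48 and -6.15 points. The gaps thus held fewer of the letters marked as repeats. Sequence beside the other domains was not measured, so these differences cannot be called particular to packed domains.

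**Figure D5:**
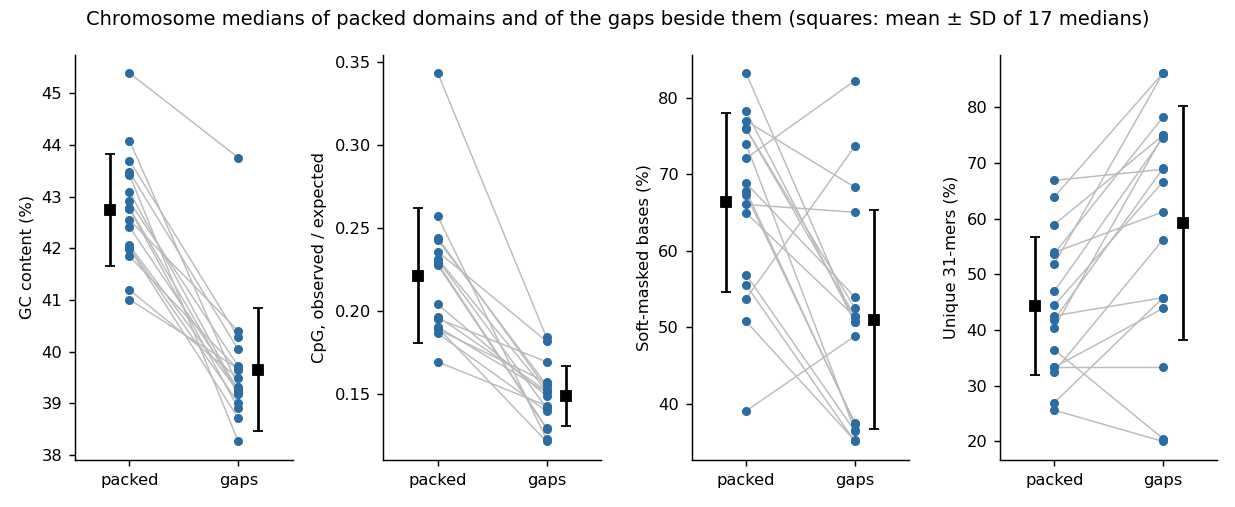
GC content (percent), CpG ratio (observed over expected), soft-masked bases (percent) and unique 31-mers (percent) of packed domains and of the gaps beside them. Each point is the median of 1 of 17 chromosomes, lines join a chromosome, and squares are the mean with the SD; GC content and CpG ratio are higher in packed domains on 17 of 17 chromosomes.

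Against other domains none of the same 4 measures differed beyond the spread between chromosomes. GC content was 42.9% in packed and 42.9% in other domains, the CpG ratio 0.213 and 0.230, soft-masked bases 64.0 and 71.2%, and unique 31-mers 42.9 and 48.1%. The differences of chromosome medians were -0.216 ± 1.12 points, -0.00949 ± 0.0399, -4.09 ± 12.9 points and -4.35 ± 13.1 points in that order, and adjusted p lay between 0.429 and 0.434 (sign-flip permutation test). Averaged over the 5 widths, soft-masked bases differed by -7.42 points (packed minus other; adjusted p = 0.0355, sign-flip permutation test).

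The LINE-1 run of 31 bases lay in 73 packed domains (19.6%) and in 28.3% of other domains, while 2.00% of all 3750 bp tiles of the 17 chromosomes held it; the run was chosen as the one in the most domains, so its share in tiles is not independent of that choice. The difference was -5.93 ± 14.2 points (adjusted p = 0.106 over 2 sequences, sign-flip permutation test). Packed domains with the run were 55 intermediate, 16 slow and 2 fast. A primer binding site lay in 32 packed domains (8.60%), in 5.79% of other domains and in 0.509% of tiles, a difference of 3.19 ± 6.42 points (adjusted p = 0.106, sign-flip permutation test). The site was one of Phe tRNAs in 10 packed domains (2.69%, against 3.43% of other domains), in 9 of them at an end shared with Ser tRNAs. Gly sites lay in 6 packed domains (1.61%, against 0.462% of other domains), Leu sites in 5 (1.34%, against 0.294%) and Ile sites in 5 (1.34%, against 1.55%). Lys sites lay in 4 (1.08%, against 0.373%), Gln sites in 4 (1.08%, against 0.306%), Pro sites in 2 (0.538%, against 0.367%) and a Thr site in 1 (0.269%, against 0.0970%). The shares by tRNA were not tested. A site lay in 9 of 63 slow packed domains (14.3%), against 13.9% of other slow domains. It lay in 21 of 258 intermediate packed domains (8.14%), against 4.15% of other intermediate domains, in 2 of 40 residual packed domains (5.00%), against 1.63% of other residual domains, and in 0 of 11 fast packed domains, against 1.40% of other fast domains. These differences by class were not tested.

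Zinc finger gene clusters carry H3K9me3 over their coding exons, so the linker between C2H2 fingers was searched through its codons. The pattern was ACNGGNGANAANCCNTA on either strand, the back-translation of the peptide TGEKPY with any base in the variable positions. At least 3 matches lay in 1 of 372 packed domains (0.269%), in 0.676% of other domains and in 0.0914% of tiles of 3750 bp (adjusted p = 0.293, sign-flip permutation test). Packed domains held 7 matches (3.42 per Mb), against 17.6 per Mb in other domains, 0.451 per Mb in the gaps and 2.10 per Mb over whole chromosomes.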

How the data were processed

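H3K9me3 and HP1b ChIP-seq and inputs were made by the authors in 216 runs. The deposited table, used here, gives other values than counts: a position per domain and its decay class in words, made by the authors over all repeats, on mm10 coordinates, printed 1-based. A deposited score column is 0 throughout and was not used. The submitters' processing notes name deepTools, bedtools, SAMtools 1.1 and Bowtie2 2.3.4.1, without roles. Not given in the sources used here were the domain caller, class limits, spike-in scaling and handling of repeated reads. There are 0 columns of sample values.

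The members and lists were chosen with earlier results of these data known. All 42890 domains on chromosomes 1 to 19, X and Y fitted within the GRCm38.p6 chromosomes, and 0 ran past an end; all ends lay on a 300 bp grid. Genes are GENCODE vM21 (overlap of 1 bp). Unique 31-mers were sampled every 100 bp. Tests were two-sided sign-flip permutation tests of per-chromosome differences, 100000 resamples (exact up to 14 chromosomes). Benjamini-Hochberg adjustment was made within each family, with a threshold of 0.05. The test was tried on simulated data in which domains were independent, so the clustering of members in runs was not covered. Versions were Python 3.11.15, numpy 2.4.6, pandas 2.3.3, numba 0.67.0, Biopython 1.88 and matplotlib 3.10.9.

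Named items were up to 3 genes per list with the most bases in packed domains, the 12 runs with the most domains (ties by span), the 10 coding genes with the most packed domains, the 5 longest packed domains and those nearest the gap limit. Genes at single residual packed domains were chosen after their values were seen, as were the repeat sequences, the Sp100 stretch and the split at 6 kb. Alternatives were other gap limits, chromosome sets, widths, overlaps and comparison sets.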

Additional observations from a re-analysis of the deposited data

How the results depend on the processing

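All p-values here are from the sign-flip permutation test over chromosomes. Over 560 alternatives, 535 kept the side of the threshold, and 389 of the 560 left out 1 chromosome. The total is no measure of robustness, because most results had not passed in the main fit. Some fits could not pass at all, such as the 15 for residual agreement with 1 chromosome left out. A change of direction was counted only where the main or the alternative fit passed the threshold. Where neither passed, the sign could change: leaving out 1 chromosome gave -2.09 to 1.08 points for agreement with both neighbours. The number of packed domains was 52 with a gap limit of 3000 bp, 1822 with 10000 bp and 572 with chromosomes 8, 11, X and Y added. With those chromosomes, the intermediate share differed by -10.6 points (adjusted p = 0.0376), the residual share by 13.0 (adjusted p = 0.0182) and the LINE-1 run by -9.45 (adjusted p = 0.0430), each now past the threshold of the permutation test. Each chromosome counted equally in these means, and chromosome Y entered with 1 packed domain, so its packed share was 100% residual. The means without chromosome Y were not tested. Within 5 width bins the slow share (-6.58 points) and soft-masked bases (-7.42) passed. The gene body difference failed the threshold with a 3000 bp limit (-5.97 points, adjusted p = 0.479) and against domains with 1 close neighbour (-4.81, adjusted p = 0.503, permutation test); leaving out 1 chromosome gave -12.2 to -9.06. Leaving out 1 chromosome gave -8.09 to -4.43 points for the LINE-1 run and 2.57 to 3.79 for primer binding sites, both past the threshold without chromosome 2 (-8.09, adjusted p = 0.0281, and 3.70, adjusted p = 0.0343, permutation test). For the zinc finger linker it gave -0.669 to -0.250 points. Without chromosome 4 no packed domain held 3 matches, and the difference of -0.669 passed the threshold (adjusted p = 0.00017, permutation test). With packed domains at 0 on all 16 chromosomes left, no difference could lie above 0. That p-value follows from the low counts and does not show a depletion. The cause of these changes was not tested.

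No paired analysis was possible because the table has no columns of samples. Depth is unknown, and a class has no error between the 3 repeats. Alternatives on repeat sequences and the Sp100 stretch were chosen after seeing the data.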

Other observations

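Packed domains of the chromosomes outside the rule had other class shares. Chromosome 8 had 70 packed of 2869 domains (2.44%), with 33 residual (47.1%), 20 slow, 17 intermediate and 0 fast, and of all its domains 17.4% were residual. On chromosome 11 there were 40 packed of 2280 domains (1.75%), with 16 residual, 12 slow and 12 intermediate, beside 22.1% residual over all its domains. The X chromosome had 89 packed of 2962 domains (3.00%), with 41 residual (46.1%), 30 slow, 17 intermediate and 1 fast, while 6.01% of all its domains were residual and 69.0% intermediate. The Y chromosome had 1 packed of 390 domains, a residual one. Both neighbours had the domain's own class for 42.9% of packed domains on chromosome 8, 42.5% on chromosome 11 and 34.8% on the X chromosome, against 47.8% on the 17 chromosomes. These values are descriptions without a test.

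Among slow packed domains, 4 of 63 (6.35%) had slow neighbours on both sides, against 4.81% of other slow domains: 1 on chromosome 6 (25.2 kb), 1 on chromosome 13 (3.6 kb) and 2 on chromosome 7 (8.4 and 7.5 kb). The pair on chromosome 7 lay at chr7:8216701-8225100 and chr7:8986501-8994000, with 1.19 and 2.67% unique 31-mers and 21.7 and 24.0% soft-masked bases, low on both scales as in the Sp100 stretch.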
